A study of Mus musculus with 9 samples.

Results

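Nrf1, the GABP subunit genes Gabpa, Gabpb1 and Gabpb2, the coactivator genes Ppargc1b and Pprc1, and the nuclear receptor gene Esrra were followed by their gene symbols through the RNA-seq tables of differentiated mouse PSCs. All 7 symbols were found in each table, among 56691 genes. The cells came from BVSC PSCs, in which mVenus reports Blimp1 (BV) and CFP reports Stella. They were differentiated as embryoid bodies and sorted by the BV reporter into BV+ PGC-like cells (PGCLCs) and BV- somatic cells. Cells carried either an Nrf1 cDNA in p20, a modified pInducer vector that doxycycline (DOX) switches on (NRF1 OE), or the empty vector (Ctrl), and the labels of all 4 groups give DOX at 1.5 μg/ml from day 2 to day 5. There were 2 libraries of BV+ cells with NRF1 OE, 2 of BV+ cells with Ctrl, 3 of BV- cells with NRF1 OE and 2 of BV- cells with Ctrl. All 4 groups come from the same parental line. The study calls its libraries biological duplicates or replicates, and whether they are separate clones, transductions or cultures is not given in the sources used here, so p-values measure only the spread between these libraries.

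NRF1 is a transcription factor that binds GC-rich palindromes in the promoters of many nuclear genes of mitochondrial respiration, and of genes of the cell cycle and protein synthesis. GABP, also named NRF2, is made of GABPA, an ETS family protein that binds DNA, and a GABPB protein from Gabpb1 or Gabpb2, which carries the activation domain. The PGC-1 family coactivators PGC-1β (Ppargc1b) and PRC (Pprc1) do not bind DNA themselves. They dock on NRF1, GABP and nuclear receptors such as ERRα (Esrra), and recruit the machinery that raises transcription of mitochondrial genes.

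Total counts lay between 13702162 and 19625460 per library, and all 7 genes passed the filter on low counts, together with 16903 genes in all. Relative to the mean of the libraries, counts ran with or against transcript GC content. Spearman's rho across 14253 genes, which are not independent replicates, lay between -0.56 and -0.47 in the 4 Ctrl libraries and between 0.0067 and 0.67 in the 5 NRF1 OE libraries. The sorted populations were checked against germ cell markers. Prdm1 (Blimp1), the gene behind the BV reporter, was at 57.5 to 62.8 CPM (counts scaled to TMM library size) in BV+ Ctrl libraries and at 57.3 to 58.6 CPM in BV- Ctrl libraries, and the log2 difference was 0.054 (edgeR adjusted p = 1.00). Of 9 germ cell markers, 0 differed between BV+ and BV- cells with Ctrl by edgeR's quasi-likelihood test, where 1.12% of all genes did, and with NRF1 OE 2 were higher and 3 lower in BV+ cells, where 13.8% of all genes were called. Dppa3 (Stella) was lower in BV+ than in BV- cells with NRF1 OE by 0.65 on the log2 scale (edgeR adjusted p = 0.0054). The summed germ cell markers were at 371 to 377 CPM in BV+ and 388 to 395 CPM in BV- cells with Ctrl, so these markers did not set BV+ apart from BV- cells, and BV+ and BV- are used here as the names of the sorted populations. Marker levels also moved with NRF1 OE. With NRF1 OE against Ctrl, 8.02% of all genes were called in BV+ and 17.2% in BV- cells. Of the 9 germ cell markers 3 rose and 0 fell in BV+ cells, with summed levels of 412 CPM in both libraries. In BV- cells 5 rose and 0 fell, with summed levels of 455 to 547 CPM. The summed level of 8 naive pluripotency markers in BV+ cells was 1182 to 1368 CPM with NRF1 OE and 1455 to 1499 CPM with Ctrl, and 2 of them fell and 0 rose. In BV- cells 2 rose and 3 fell, with sums of 1515 to 1571 and 1512 to 1521 CPM. The 7 neuroectoderm markers summed to 124 to 182 CPM with NRF1 OE and 72.5 to 81.6 CPM with Ctrl in BV+ cells, and to 43.4 to 59.8 and 34.8 to 46.3 CPM in BV- cells, with Hes5 at 0 in BV- Ctrl. The 9 mesoderm markers summed to 34.1 to 46.6 and 24.9 to 26.7 CPM in BV+ cells, and to 14.3 to 18.0 and 19.0 to 20.2 CPM in BV- cells. For 8 endoderm markers the sums were 43.1 to 49.4 and 53.3 to 53.6 CPM in BV+ cells. In BV- cells they were 40.6 to 63.0 and 66.3 to 80.7 CPM. For 6 formative and primed epiblast markers they were 625 to 636 and 606 to 621 CPM in BV+ cells. The BV- sums of these were 576 to 712 and 596 to 630 CPM. The part of these shifts in the results was not tested. In bulk samples, fewer cells of a type and less RNA per cell cannot be told apart.

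Nrf1 counts do not tell transcripts of the construct from those of the endogenous gene, and the share of each was not tested. The study's cloning primers are given below because they set the ends of the expressed Nrf1 sequence. Capitals mark the bases found in Nrf1 transcripts of the mouse GENCODE annotation, and lower case the added 5′ tail with the restriction site.
Nrf1-sal I-f: acgcgtcgaCATGGAGGAGCACGGAGT
Nrf1-nheI-f: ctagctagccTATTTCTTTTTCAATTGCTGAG
The first matched 18 of its 27 bases to 17 of 20 Nrf1 transcripts and spans the start codon. The second matched 22 of its 32 bases to 4 of the 20, on the opposite strand, and reaches the stop codon. In 2 of those 4 the sequence between them is in frame and 1605 bases long. The deposited FPKM of Nrf1 was computed over 10282 bases, and the longest Nrf1 transcript of the GRCm38 annotation has 4042 bases.

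Levels are given in FPKM, which scales fragments to gene length and library size. The length used for Nrf1 was 10282 bases, beside 4042 in its longest GRCm38 transcript. For Gabpa it was 5686 bases beside 4987, so the order of different genes depends on the length used. By group means Pprc1 had the highest level in all 4 groups, followed by Gabpa and Nrf1, then Gabpb1 and Gabpb2, Esrra and Ppargc1b. Gabpb2 stood above Gabpb1 in BV+ cells with Ctrl. Pprc1 ranged from 37.2 to 49.5 FPKM over the libraries, and Ppargc1b from 0.87 to 1.47 FPKM. Of the 6 pairs of neighbours in this order, the libraries of 5 did not overlap in each group other than BV- cells with NRF1 OE, where 4 did not. Gabpb1 and Gabpb2 overlapped in BV+ and BV- cells with Ctrl, and Gabpb2 and Esrra in BV+ and BV- cells with NRF1 OE. Gabpa and Nrf1 also overlapped in BV- cells with NRF1 OE, where Gabpa was at 8.30 FPKM in library 2, below Nrf1.

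**Figure D1:**
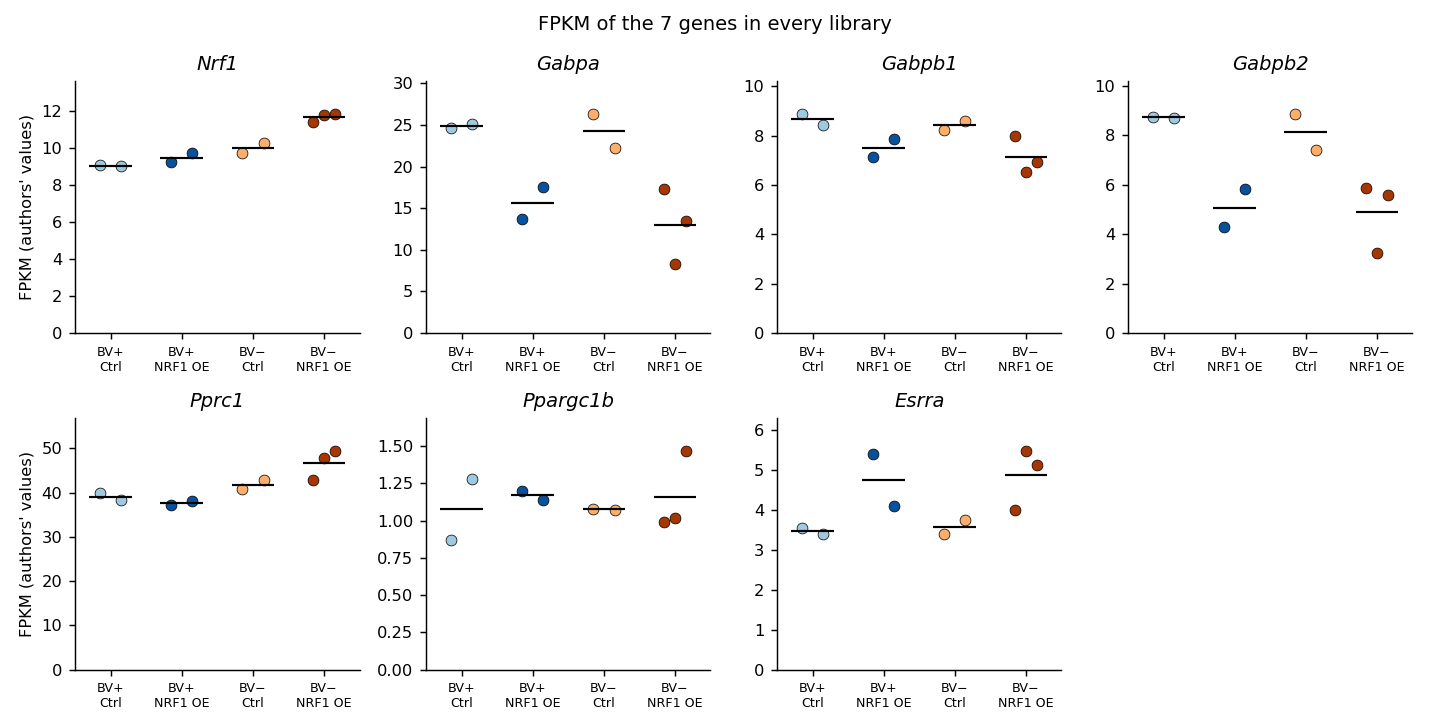
FPKM of each of the 7 genes (vertical axes, from 0, on a scale of their own) in the 4 groups. Points are libraries and bars are group means of 2 or 3 libraries. Gabpa and Gabpb2 lie lower in every NRF1 OE library than in every Ctrl library, and Esrra lies higher.

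The gene that the construct expresses was examined first. Nrf1 was at 9.21 and 9.71 FPKM in BV+ cells with NRF1 OE and at 9.06 and 9.0 with Ctrl. In BV- cells it was at 11.4, 11.8 and 11.8 FPKM with NRF1 OE and at 9.73 and 10.3 with Ctrl. In each population the NRF1 OE libraries lay above the Ctrl libraries. The log2 difference had a 95% interval of -0.12 to 0.33 in BV+ cells and of 0.051 to 0.47 in BV- cells, and the edgeR adjusted p was 0.489 and 0.0718. Offsets were also fitted in each library for a smooth dependence on transcript GC and length. With them the log2 difference was 0.27 in BV+ cells (edgeR adjusted p = 0.101) and 0.55 in BV- cells (edgeR adjusted p = 0.0197). Nrf1 transcripts have a GC content of 45.4%, the 26.8th percentile of the genes, and the fitted trend alone came to -0.17 and -0.28 on the log2 scale.

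Of the GABP genes, Gabpa and Gabpb2 had lower levels with NRF1 OE, Gabpb1 differed less, and only Gabpa passed the test, in BV- cells. Gabpa, the DNA-binding subunit, was at 13.7 and 17.6 FPKM in BV+ cells with NRF1 OE and at 24.6 and 25.1 with Ctrl. In BV- cells it was at 17.3, 8.30 and 13.4 FPKM with NRF1 OE and at 26.3 and 22.3 with Ctrl. The groups did not overlap in either population, and the second NRF1 OE library of BV- cells was the lowest of all. In BV- cells Gabpa fell by 0.86 on the log2 scale (95% interval -1.37 to -0.36, edgeR adjusted p = 0.0371). In BV+ cells the log2 difference was -0.64 (95% interval -1.2 to -0.075), which did not pass the test (edgeR adjusted p = 0.118). Gabpa has the lowest GC content of the 7 genes tested, 41.4%, at the 10.2th percentile, and the fitted GC and length trend came to -0.51 on the log2 scale in BV- cells and -0.28 in BV+ cells. Its exons share 397 bases with Atp5j on the opposite strand, whose reads cannot be told apart if counting ignored strand. With the offsets the log2 difference in BV- cells was -0.40 and the call ended (edgeR adjusted p = 0.0534). Without BV- NRF1 OE library 3 the call ended as well (edgeR adjusted p = 0.0625), where 35 of 16877 genes were called against 2910. It also ended when any Ctrl library was left out, which left 1 library in that group. Nearly all calls over all genes were lost in those fits too, so they say little about Gabpa alone. Gabpa was at -0.74 on the log2 scale without BV- Ctrl library 1 and at -0.98 without library 2. Over all 9 omissions the log2 differences lay between -1.11 and -0.65.

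Gabpb2, which encodes the second of the GABPB proteins, was at 4.30 and 5.83 FPKM in BV+ cells with NRF1 OE and at 8.75 and 8.70 with Ctrl. In BV- cells it was at 5.86, 3.25 and 5.59 FPKM with NRF1 OE and at 8.87 and 7.39 with Ctrl. Every NRF1 OE library lay below every Ctrl library. The log2 difference was -0.75 in BV+ cells (95% interval -1.28 to -0.22, edgeR adjusted p = 0.0721) and -0.69 in BV- cells (95% interval -1.16 to -0.21, edgeR adjusted p = 0.0501), just outside the threshold. With the GC and length offsets it was -0.55 in BV+ cells, which passed (edgeR adjusted p = 0.0201), and -0.30 in BV- cells (edgeR adjusted p = 0.134). Gabpb1 differed less: it was at 7.15 and 7.85 FPKM in BV+ cells with NRF1 OE and at 8.88 and 8.45 with Ctrl, while the BV- libraries gave 7.98, 6.54 and 6.94 FPKM with NRF1 OE and 8.24 and 8.6 with Ctrl. Here too the groups did not overlap, but narrowly in CPM, with 63.1 in BV- NRF1 OE library 1 and 63.3 in BV- Ctrl library 1. Its log2 difference was -0.17 in BV+ cells (95% interval -0.45 to 0.11) and -0.20 in BV- cells (-0.45 to 0.058), neither past the test, and with the offsets it was -0.010 and 0.072.

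Because GABPA works in a complex with a GABPB protein, the FPKM ratio of Gabpa to Gabpb1 plus Gabpb2 was computed in each library. This ratio and the ratio of Gabpb1 to Gabpb2 were chosen after the data were seen. The size of both ratios depends on the gene lengths used for FPKM. The subunit ratio with NRF1 OE was 1.19 and 1.28 in BV+ cells and 1.25, 0.848 and 1.07 in BV- cells. With Ctrl it was 1.4 and 1.47 in BV+ cells and 1.54 and 1.39 in BV- cells. All 5 NRF1 OE libraries lay below all 4 Ctrl libraries. Gabpb1 over Gabpb2 was 1.53 ± 0.314 (SD, n = 5) with NRF1 OE and 1.02 ± 0.102 (SD, n = 4) with Ctrl, again without overlap. The lack of overlap is a description with no test, since the genes in the ratios were already seen to differ, and 29.7% of all single genes did not overlap between the same libraries. After each library's fitted GC and length trend was removed, the subunit ratio lay between 0.987 and 1.32 with NRF1 OE and between 1.35 and 1.43 with Ctrl, and Gabpb1 over Gabpb2 between 1.2 and 1.71 and between 0.961 and 1.16.

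**Figure D2:**
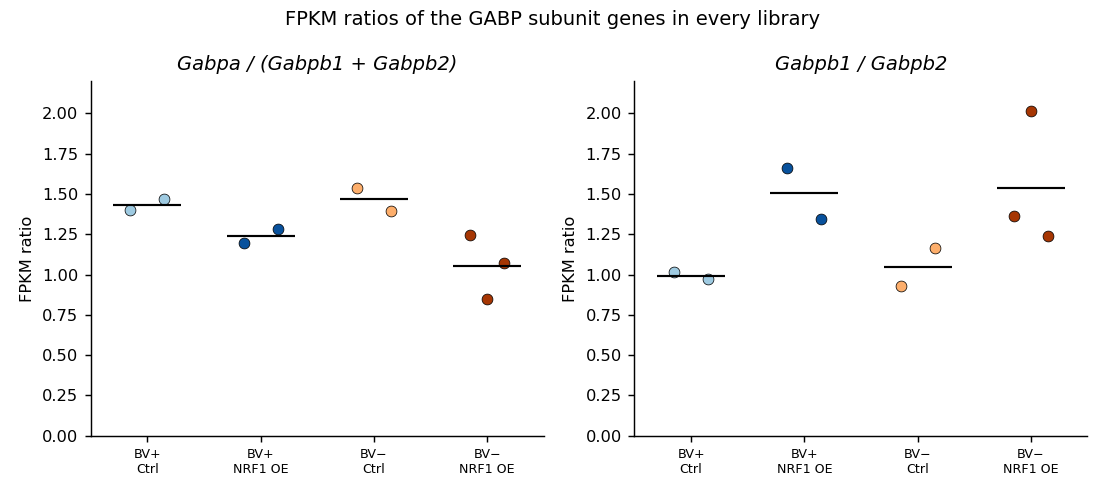
FPKM ratio of Gabpa to the sum of Gabpb1 and Gabpb2 (left) and of Gabpb1 to Gabpb2 (right), vertical axes from 0, in the 4 groups. Points are libraries and bars are group means. The left ratio is lower, and the right ratio higher, in each NRF1 OE library than in each Ctrl library.

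The promoters of the 4 genes whose NRF1 OE and Ctrl libraries did not overlap over all 9 libraries are shown. They were searched for binding motifs of NRF1 and of the ETS family, to which GABPA belongs. The sequences are RefSeq windows from 250 bases before to 50 after an annotated start on GRCm38.p6, and 6 of the 7 genes had 1 or 2 windows, 8 in all. Capitals mark matches, on either strand, to the NRF1 palindrome (GCGCA, any base, then GCGC), to CATGCGC, a core of other NRF1 sites, or to the ETS motif CCGGAAG that GABPA binds.
Gabpa (chr16:84834874-84835173, plus strand): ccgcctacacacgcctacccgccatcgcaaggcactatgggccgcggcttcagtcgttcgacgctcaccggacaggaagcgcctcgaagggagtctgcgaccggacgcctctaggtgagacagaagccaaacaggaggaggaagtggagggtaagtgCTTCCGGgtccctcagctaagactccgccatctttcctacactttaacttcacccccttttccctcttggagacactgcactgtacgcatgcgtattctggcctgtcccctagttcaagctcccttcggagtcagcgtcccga
Gabpb1 (chr2:126675543-126675842, minus strand): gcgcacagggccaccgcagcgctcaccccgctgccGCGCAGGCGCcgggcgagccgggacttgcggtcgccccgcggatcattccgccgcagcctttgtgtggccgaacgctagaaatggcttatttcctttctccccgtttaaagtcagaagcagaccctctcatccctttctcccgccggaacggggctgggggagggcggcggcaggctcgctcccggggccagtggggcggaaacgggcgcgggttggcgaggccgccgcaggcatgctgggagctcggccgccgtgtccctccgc
Gabpb2 (chr3:95217893-95218192, minus strand): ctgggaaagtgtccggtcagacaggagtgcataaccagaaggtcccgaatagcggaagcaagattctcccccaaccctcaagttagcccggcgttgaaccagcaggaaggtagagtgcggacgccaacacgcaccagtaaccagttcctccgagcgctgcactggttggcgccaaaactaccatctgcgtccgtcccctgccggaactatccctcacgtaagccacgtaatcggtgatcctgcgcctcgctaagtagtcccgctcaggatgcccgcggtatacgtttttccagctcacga
Esrra (chr19:6921759-6922058, minus strand): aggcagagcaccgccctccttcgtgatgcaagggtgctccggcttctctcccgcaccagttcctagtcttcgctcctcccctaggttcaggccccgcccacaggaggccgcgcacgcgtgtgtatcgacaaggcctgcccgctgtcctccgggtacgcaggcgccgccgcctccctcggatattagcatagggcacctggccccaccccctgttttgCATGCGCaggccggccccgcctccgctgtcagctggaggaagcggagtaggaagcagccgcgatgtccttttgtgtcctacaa
Gabpa held the ETS motif on the minus strand, 93 bases before the start, which 8.86% of all 32851 RefSeq windows hold on either strand. Gabpb1 held the NRF1 palindrome, as GCGCAGGCGC, 215 bases before the start of its second window, found in 4.6% of windows and in 5.19% of genes. Its first window, not shown, held none of the motifs. Esrra held CATGCGC 33 bases before the start, found in 3.91% of windows and searched only after the windows were seen. Neither the ERR motif AAGGTCA (4.72% of windows) nor the CRE motif TGACGTCA (1.79%) was found in any of the 8 windows, and in both windows of Nrf1 none of the motifs was found. A match is only a run of letters in this window and is not evidence of binding.

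The PGC-1 family members were described next. Pprc1, which encodes the growth-regulated coactivator PRC, was at 37.2 and 38.2 FPKM in BV+ cells with NRF1 OE and at 39.9 and 38.4 with Ctrl. In BV- cells it was at 42.9, 47.9 and 49.5 FPKM with NRF1 OE and at 40.8 and 42.8 with Ctrl. Its groups overlapped in BV+ cells in CPM and did not in BV- cells, and the log2 difference between NRF1 OE and Ctrl was -0.015 there (95% interval -0.25 to 0.22) and 0.20 in BV- cells (-0.014 to 0.41), neither past the edgeR test. With the GC and length offsets it was -0.29 in BV+ cells, which passed (edgeR adjusted p = 0.0346), and -0.0050 in BV- cells. Ppargc1b lay between 0.87 and 1.47 FPKM in all libraries, with 52 to 102 raw counts, and its groups overlapped in both populations. Its log2 difference was 0.15 in each, with 95% intervals of -0.43 to 0.72 and -0.38 to 0.68, so changes within these ranges were not excluded.

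Esrra, the receptor through which PGC-1 coactivators reach many respiratory genes, was at 5.4 and 4.1 FPKM in BV+ cells with NRF1 OE and at 3.54 and 3.4 with Ctrl. In BV- cells it was at 4.0, 5.49 and 5.12 FPKM with NRF1 OE and at 3.4 and 3.74 with Ctrl. All NRF1 OE libraries lay above all Ctrl libraries. The log2 difference was 0.50 in BV+ cells (95% interval 0.087 to 0.90, edgeR adjusted p = 0.102) and 0.48 in BV- cells (95% interval 0.11 to 0.86, edgeR adjusted p = 0.0669), so neither passed. Esrra lies at the 52.9th percentile of GC content, the fitted trend came to 0.043 in each population, its exons share 73 bases with Trmt112 on the opposite strand, and with the offsets the log2 difference was 0.45 and 0.44 (edgeR adjusted p = 0.0798 and 0.0847).

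Counted over the 7 genes tested, NRF1 OE against Ctrl gave 0 calls in BV+ cells at an edgeR adjusted p under 0.05, where 8.02% of all genes were called, 6.24% higher and 1.78% lower. At an unadjusted p under 0.05 there were 3 (Gabpa, Gabpb2 and Esrra), where 32.5% of all genes passed, and by DESeq2's adjusted p 1 (Gabpb2), where 2106 of 16903 genes passed. In BV- cells 1 gene, Gabpa, was called, where 17.2% of all genes were, 10.2% higher and 6.98% lower. Without adjustment 4 passed there (Nrf1, Gabpa, Gabpb2 and Esrra), beside 39.1% of all genes, and by DESeq2 2 passed, where 4025 of 16903 genes did. The study's own threshold asks for an unadjusted p under 0.05 and a log2 fold change beyond 0.58 in either direction. By it Gabpa and Gabpb2 passed in each population, 2 of 7 genes where 17% of all genes passed in BV+ and 16% in BV- cells. With the GC and length offsets, 0 of 7 passed that threshold in either, where 2240 of 16903 genes passed in BV+ and 1233 in BV- cells, against 2870 and 2703 without the offsets. The NRF1 OE and Ctrl libraries did not overlap in CPM for 5 of the 7 genes in BV+ cells, where 70.1% of all genes did not, and for 6 in BV- cells, where 57% did not, which leaves little to read from a lack of overlap within a population. Over all 9 libraries, 4 of the 7 genes (Gabpa, Gabpb1, Gabpb2 and Esrra) had NRF1 OE and Ctrl libraries that did not overlap in CPM, where 29.7% of all genes did not. Leaving out BV- NRF1 OE library 2, the one with the strongest GC trend and the fewest counts, gave 3 calls in BV+ cells (Gabpa, Gabpb2 and Esrra), where 4957 of 16885 genes were called against 1355 with all libraries. Leaving out BV- NRF1 OE library 1 gave 5 calls in BV- cells (Nrf1, Gabpa, Gabpb2, Pprc1 and Esrra), where 5847 of 16902 genes were called against 2910. Without library 2 there were 2 in BV- cells (Gabpa and Gabpb2), where 2460 of 16885 genes were called.

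**Figure D3:**
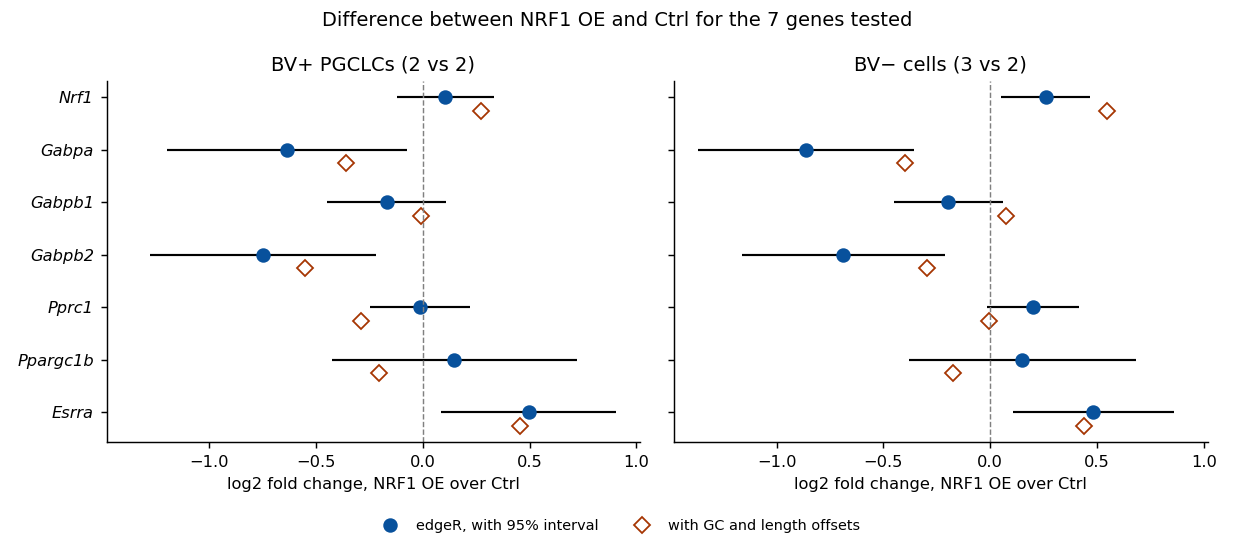
Log2 fold change of NRF1 OE over Ctrl (horizontal axes) for the 7 genes tested, in BV+ cells on the left and BV- cells on the right. Filled circles with lines are edgeR estimates with 95% intervals, and open diamonds are the estimates with GC and length offsets. Gabpa and Gabpb2 lie closer to 0 with the offsets, Nrf1 farther from it, and Esrra stays near 0.45.

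**Figure D4:**
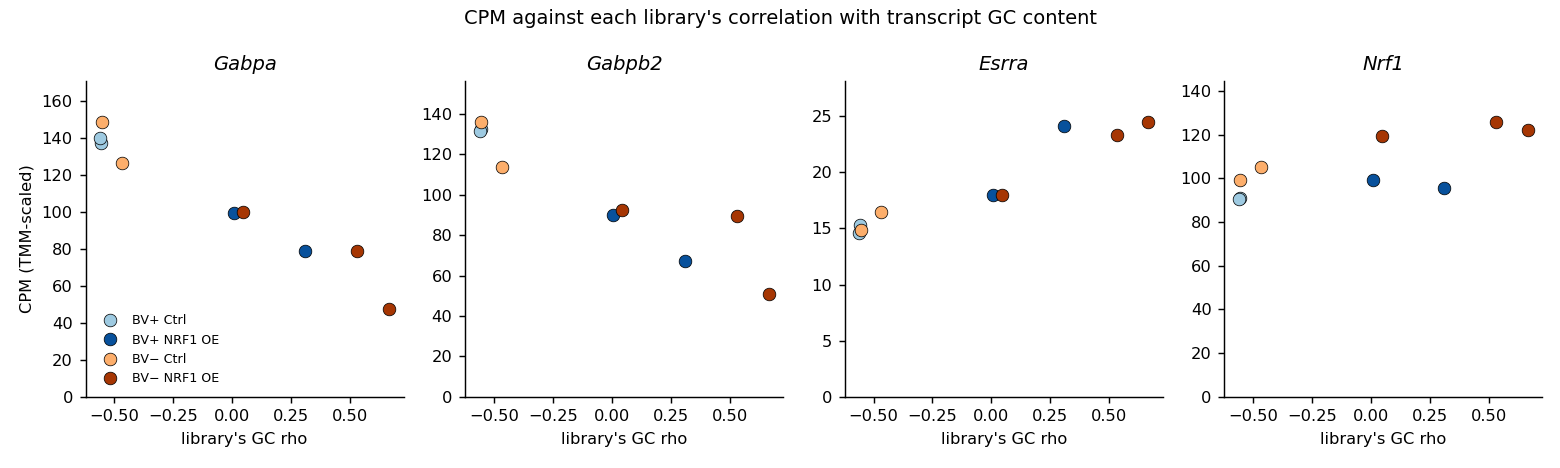
TMM-scaled CPM (vertical axes, from 0) of Gabpa, Gabpb2, Esrra and Nrf1 in each library against that library's Spearman correlation with transcript GC content (horizontal axes). Points are libraries, coloured by group. Every Ctrl library has a negative and every NRF1 OE library a positive correlation, and Gabpa is lowest, at 47.7 CPM, in the library with the highest.

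BV+ and BV- cells were then compared directly. With Ctrl, 0 of the 7 genes differed by the edgeR test, 0 at an unadjusted p under 0.05 and 0 by DESeq2. Of all genes 1.12% were called by edgeR, 1.1% higher and 0.0237% lower in BV+ cells, 7.77% passed without adjustment and 5.74% passed the study's threshold, which 0 of the 7 passed. Nrf1 and Pprc1 did not overlap between the populations, as 48% of all genes did not. With NRF1 OE, Nrf1 and Pprc1 were lower in BV+ than in BV- cells, by 0.33 (95% interval -0.53 to -0.12, edgeR adjusted p = 0.0431) and 0.34 (-0.55 to -0.12, edgeR adjusted p = 0.0432) on the log2 scale, and 13.8% of all genes were called there, 9.9% higher and 3.85% lower. Both also passed by DESeq2 and without adjustment, where 28.2% of all genes passed. The same 2 did not overlap, where 39.9% of all genes did not, and neither passed the study's threshold, which 14.7% of all genes passed. The other 5 were not called, with a smallest edgeR adjusted p of 0.557. Both calls were kept without BV- NRF1 OE library 1 (edgeR adjusted p = 0.0275 for Nrf1 and 0.0131 for Pprc1), where 3182 of 16902 genes were called. They ended without BV- NRF1 OE library 2 or 3, where 2506 and 1514 of all genes were called against 2325. The Nrf1 and Pprc1 calls also ended without any library of another group, which left 1 library in that group. With the GC and length offsets the differences were -0.55 for each (edgeR adjusted p = 0.0011 and 0.00017), and Gabpb2 was called as well (edgeR adjusted p = 0.0372), where 5094 of 16903 genes were called. Pprc1 was the only one of the 7 whose BV+ and BV- libraries did not overlap over all 9, at 235 to 245 CPM in BV+ and 254 to 322 CPM in BV- cells, where 11.5% of all genes did not overlap. Whether NRF1 OE acted differently in the populations was tested as an interaction, and 0 of the 7 genes differed by edgeR, with 0 at an unadjusted p under 0.05 (5.51% of all genes), 0 past the study's threshold (4.48%) and 0 by DESeq2. Of all genes 0% were called by edgeR, and 23 genes by DESeq2. For Gabpa it was 0.22 on the log2 scale (95% interval -0.53 to 0.98), for Nrf1 -0.15 (-0.46 to 0.15) and for Pprc1 -0.21 (-0.53 to 0.10).

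Other genes of the pathway were described as lists. The GC trends given above differ between the same groups, and their part in these counts was not tested. Of 41 PGC-1 partners and regulators tested, 5 rose and 0 fell with NRF1 OE in BV+ cells, or 12.2% against 8.02% of all genes, with a median log2 difference of 0.061 against 0.036 over all genes. Mef2c, a MADS box transcription factor gene, and Crtc3, a coactivator gene of CREB, were the largest rises, by 0.99 (edgeR adjusted p = 0.0334) and 0.82 (edgeR adjusted p = 0.0485). In BV- cells 7 rose and 6 fell, or 31.7% against 17.2% of all genes, with a median of 0.085 against 0.0092. There the nuclear receptor genes Rxrb and Thra rose by 0.56 (edgeR adjusted p = 0.0317) and 0.54 (0.0449), and Prkaa2, a catalytic subunit gene of the energy sensor AMPK, and Creb1 fell by 0.88 (0.0317) and 0.75 (0.0406).

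Of 31 textbook targets of NRF1 and GABP, 1 rose in BV+ cells, the cytochrome oxidase subunit gene Cox7a2, by 0.82 (edgeR adjusted p = 0.0321), or 3.23% of the list against 8.02% of all genes, and 0 fell. The list's median was 0.27 against 0.036 over all genes. In BV- cells 12 rose and 2 fell, or 45.2% against 17.2% of all genes, with a median of 0.34 against 0.0092. Cox4i1 and Cox6b1 rose by 0.63 (edgeR adjusted p = 0.0317) and 0.54 (0.0424), while Tfb2m and Tfam, which encode factors of mitochondrial DNA transcription, fell by 0.55 (0.0435) and 0.34 (0.0435). The summed level of these targets was 6181 to 6688 CPM with NRF1 OE and 5161 to 5421 CPM with Ctrl in BV+ cells, and 6970 to 8159 against 5570 to 5973 CPM in BV- cells. Between BV+ and BV- cells, 0 of the 31 differed with Ctrl, where 1.12% of all genes were called. With NRF1 OE 0 were higher and 3 lower in BV+ cells, or 9.68% of the list. Of all genes 13.8% were called there, 9.9% higher and 3.85% lower.

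Among 20 other ETS family genes tested, which share the DNA motif of GABPA, 3 rose and 0 fell in BV+ cells (15%, against 8.02% of all genes). The largest rises were Fli1 with 1.61 (edgeR adjusted p = 0.034) and Ets1 with 1.22 (0.0122). Fli1 was at a low level, with means of 0.75 CPM with Ctrl and 2.26 CPM with NRF1 OE, beside 15.9 and 37.0 CPM for Ets1. In BV- cells 3 rose and 2 fell (25%, against 17.2% of all genes): Elf3 and Erf rose by 0.67 (edgeR adjusted p = 0.0358) and 0.58 (0.0418) and Etv1 and Elk3 fell by 0.65 (0.0374) and 0.53 (0.0371). The medians were -0.043 and -0.065, against 0.036 and 0.0092 over all genes.

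Over the 9 libraries, the genes most like each of the 7 in log2 CPM were found among 9497 genes. They share libraries and depth, so the correlations are a description. Gabpa was most like Wapl (r = 0.998), Atf2 (0.998) and Tnks2 (0.998), and Gabpb2 most like Baz1b (0.998), Rbm27 (0.997) and Anln (0.995). Nrf1 was most like Trip10 (0.991), Spg7 (0.990) and the gene model Gm6969 (0.987), and Pprc1 most like Mmp17 (0.989), Aars (0.985) and Ltbp4 (0.984). Esrra was most like Zfp219 (0.996), Snrpc (0.993) and Csnk1g2 (0.993), and Gabpb1 most like Bfar (0.990), Riok3 (0.984) and Adss (0.983). Ppargc1b followed no gene so closely, with Vash1 (0.844), Phka2 (0.839) and Coq5 (0.819) nearest. Wapl, Atf2 and Tnks2 have transcripts of 41.4%, 40.5% and 44.5% GC, beside 41.4% for Gabpa. For the other genes the nearest gene had 55.5% GC beside 45.4% for Nrf1, 62.1% beside 50.3% for Esrra and 50.8% beside 46.0% for Gabpb2. It had 47.5% beside 45.6% for Gabpb1, 55.9% beside 55.9% for Pprc1 and 62.2% beside 57.8% for Ppargc1b. The part of GC content in these correlations was not tested.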

How the data were processed

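Poly(A) RNA-seq libraries of 9 samples in 4 groups were used. The authors trimmed the reads, aligned them with HISAT2 2.0.1 (GRCm39) and obtained counts per gene with HTSeq 0.6.1. The deposited tables give raw counts, which are not normalized, and the authors' FPKM, computed from those counts, for 56691 genes. The strand setting of HTSeq is not given in the sources used here, and 5 of the genes overlap genes on the opposite strand. Gabpa shares 397 bases with Atp5j, Gabpb2 328 with Gm16740 and Pprc1 177 with Ldb1. Esrra shares 73 with Trmt112 and Gabpb1 14 with Gm27003. Their counts are uncertain for this reason, by an amount that was not tested.

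Counts were tested in R 4.3.3 with edgeR 4.0.16 (quasi-likelihood F test, TMM, filterByExpr, Benjamini-Hochberg adjustment over 16903 genes) in 1 fit of all 9 libraries with a mean per group. Calls had an adjusted p under 0.05, and the study's threshold was counted beside it. CPM were TMM-scaled, with a prior count of 2 on the log2 scale. GC content and length came from a mouse annotation on GRCm38 for 16662 genes, and promoters and motifs from RefSeq. DESeq2 1.42.0, other scalings, filters, a replicate block, GC and length offsets and each library left out were alternatives. The procedures were also run on simulated counts, drawn with a common spread for all genes and libraries. In the data the chi-square per degree of freedom of replicate pairs lay between 2.99 in BV+ Ctrl and 34.7 in BV- NRF1 OE. The simulation therefore cannot show how the test behaves with such unequal spread. Figures used Python 3.11.15 and matplotlib 3.10.9.

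Named were the 7 genes, for each tested gene the 3 genes of at least 10 CPM most correlated with it, and from each list the 2 largest rises and falls called with NRF1 OE. The genes and lists were chosen with earlier results of these data known. A further gene of the set is not reported here. Replicate pairs all differed beyond sampling noise.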

Additional observations from a re-analysis of the deposited data

How the results depend on the processing

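Among the 7 genes tested, the number called at an adjusted p under 0.05 depended on the settings. For NRF1 OE against Ctrl in BV+ cells it was 0. It became 1 with upper-quartile factors, the DESeq2 test or GC and length offsets plus a replicate block, where 1143 to 2106 genes were called. It became 2 without a filter on low counts, with only the groups compared and with the offsets alone, where 3440, 4371 and 2204 of all genes were called against 1355. In BV- cells it was 1. It became 2 with DESeq2 size factors, upper-quartile factors, library size alone, a filter at a mean of 10 counts or the DESeq2 test. In those settings 2853 to 4025 of all genes were called against 2910. The number was 3 without a filter, where 4392 were called, and 0 with only the groups compared, where edgeR called 0 of 15840 genes. For BV+ against BV- cells with NRF1 OE it was 2. It became 0 without a filter, with library size alone, with the mean-of-10 filter or with only the groups compared. Of all genes 1260 to 2812 were then called against 2325, and the offsets gave 3 of the 7, where 5094 were called. With GC and length offsets, 0 in place of 2 of the 7 genes passed the study's threshold for NRF1 OE in BV+ and in BV- cells, and likewise 0 with the block added.

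Leaving out single libraries moved the calls for NRF1 OE between 0 and 3 in BV+ cells and between 0 and 5 in BV- cells, and those for BV+ against BV- cells with NRF1 OE between 0 and 2. Past the study's threshold the ranges were 0 to 3 and 1 to 3 for NRF1 OE in BV+ and BV- cells, with 0 without BV+ NRF1 OE library 1, 1 without BV+ Ctrl library 1 or 2 or BV- Ctrl library 2 in BV+ cells, and 1 without BV- NRF1 OE library 2 or BV- Ctrl library 1 in BV- cells. The log2 difference of Ppargc1b ranged from -0.088 to 0.46 in BV+ and from -0.075 to 0.26 in BV- cells, that of Pprc1 in BV+ cells from -0.044 to 0.033, and the interaction of Gabpa from -0.0096 to 0.48. None of these was called. Values without a call also changed sign with GC and length offsets, for Ppargc1b to -0.20 in BV+ and -0.18 in BV- cells, for Gabpb1 in BV- cells to 0.072 and for Pprc1 in BV- cells to -0.0050. With the filter at a mean of 10 counts Pprc1 in BV+ cells was at 0.025.

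The labels give replicate numbers 1 and 2 to all 4 groups, and 3 only to BV- cells with NRF1 OE. They do not say whether same-numbered libraries are paired. Deviations of same-numbered libraries correlated between -0.295 and 0.243. This cannot decide on pairing, since in a group of 2 the deviations of the libraries mirror each other. With the replicate block, 0 of the 7 genes were called for NRF1 OE in BV- cells, where Gabpa was at -0.92 (edgeR adjusted p = 0.107), and 0 of the 7 for BV+ against BV- cells with NRF1 OE. Over all genes the block called 0 and 1064. With block and offsets 0 of the 7 and 58 of all genes were called in BV- cells, and for BV+ against BV- cells with NRF1 OE 2 of the 7, Nrf1 (edgeR adjusted p = 0.0085) and Pprc1 (0.0039), and 3219 of all genes. Ppargc1b in BV- cells was at -0.066 with the block. With block and offsets it was at -0.38 there and at -0.20 in BV+ cells, Gabpb1 at 0.10 and Pprc1 at -0.031 in BV- cells. Crossed numbers, tried after seeing the data for BV+ against BV- cells with Ctrl, gave 2079 calls over all genes against 823 as numbered and 890 without a block. The cause of these changes was not tested. With 2 or 3 libraries a group, and 52 to 102 counts for Ppargc1b, the precision of single genes is limited.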
